A study of Saccharomyces cerevisiae W303 with 30 samples.

Results

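The small subunit ribosomal protein genes of Saccharomyces cerevisiae encode the proteins of the 40S subunit in the cytosol. They were taken by identity alone, as the 56 genes named RPS0A to RPS31, out of 6692 genes with a count; the rule itself uses no measured value. Of the 56 genes, 48 form 24 pairs of paralogs called A and B, and 8 have no paralog. In the RefSeq annotation of build R64, 36 of the genes hold an intron and 20 do not.

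The study measured newly synthesized RNA (nsRNA) after loss of Mediator tail subunits. Cells in YPD at 30 °C were labelled with 4-thiouracil (4tU) for 6 min, labelled RNA was biotinylated and pulled down, and stranded libraries were counted per gene. There were 30 libraries in 10 groups of 3, and 5 comparisons that shared no control libraries.

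Every strain was of the W303 background. WT carried no degron, and med16Δ lacked MED16, which had been replaced by LEU2; neither received an agent, so this comparison is of lasting loss. The degron strains expressed the plant F-box protein OsTIR1 from the GPD1 promoter and carried auxin-inducible degron (AID) tags on the native proteins: Med16-3xV5-IAA7 in Med16-AID, Med15-3xHA-IAA7 in Med15-AID, both tags in Med15/16-AID, and Med16-3xV5-IAA7 with Mot1-3xHA-IAA7 in Mot1/Med16-AID. These strains were treated for 30 min with 0.5 mM 3-IAA, an auxin, or with its solvent DMSO (1:2000), so the DMSO controls carried the tags and OsTIR1 too. No strain without a degron received 3-IAA. An effect of 3-IAA itself therefore cannot be told apart from loss of the tagged proteins in any degron comparison. Each genotype was a single strain. Libraries of WT, med16Δ and Med16-AID were fitted as 1 set and those of the other strains as another, and levels are compared only within a set.

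Ribosomal protein genes are among the most heavily transcribed genes of growing yeast, and their output is tuned to growth and nutrients. Rap1 binds their promoters and, with Fhl1, Ifh1 and in many cases Hmo1, drives their transcription. The promoters are largely served by the general factor TFIID. Mediator bridges activators and RNA polymerase II. Its tail, which holds Med15 and Med16, contacts activators, and Med16 links the rest of the tail to core Mediator. Mot1 is an ATPase that strips TATA-binding protein from DNA.

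Because paralogs have almost the same sequence, what can be counted depends on where they differ. The coding stretches below, from RefSeq R64 and written 5′ to 3′ on the gene's strand, belong to the pairs whose A to B ratio moved most in these data. Capitals mark bases at which A and B differ.
RPS9A: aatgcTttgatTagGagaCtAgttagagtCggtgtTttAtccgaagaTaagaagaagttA
RPS9B: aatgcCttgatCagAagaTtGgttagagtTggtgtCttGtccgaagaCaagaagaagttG
RPS23A: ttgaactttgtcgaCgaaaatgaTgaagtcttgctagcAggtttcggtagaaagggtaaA
RPS23B: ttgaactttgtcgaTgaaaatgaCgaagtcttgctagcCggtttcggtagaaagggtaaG
RPS16A: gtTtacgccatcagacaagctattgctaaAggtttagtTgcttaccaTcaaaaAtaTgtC
RPS16B: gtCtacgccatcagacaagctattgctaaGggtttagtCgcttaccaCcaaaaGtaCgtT
RPS28A: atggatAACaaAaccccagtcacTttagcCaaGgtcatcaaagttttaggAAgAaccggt
RPS28B: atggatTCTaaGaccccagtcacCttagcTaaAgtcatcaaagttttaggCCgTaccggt
They lie at chrXVI:405670-405729 (+) for RPS9A, chrII:605140-605199 (+) for RPS9B, chrVII:727569-727628 (+) for RPS23A, chrXVI:795606-795665 (+) for RPS23B, chrXIII:552703-552762 (+) for RPS16A, chrIV:307067-307126 (-) for RPS16B, chrXV:648948-649007 (-) for RPS28A and chrXII:673131-673190 (+) for RPS28B.

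Over each stretch of 60 bases the RPS9 copies differ at 10 positions, the RPS23 copies at 4, the RPS16 copies at 7 and the RPS28 copies at 10. Between the translated copies, 5 of 197 aligned residues differ for Rps9, 1 of 67 for Rps28, and 0 for Rps23 and Rps16. In 9 of the 24 pairs A and B encode the same protein. Only reads placed at 1 position were counted. Of all 38-base windows in the coding exons, 91.3% were unique in the genome for RPS9A, 75% for RPS23A, 95.7% for RPS16A and 100% for RPS28A. The share was 22.9% for the RPS6 pair, 43.3% for the RPS4 pair and 52.5% for the RPS24 pair, so the counts of these genes rest on part of their sequence and are uncertain. With windows of 75 bases it was 36.3%, 70.3% and 73.7%. The windows stand for single reads, and read pairs were not modelled.

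The promoters were searched for ACCCANNCA, a form of the Rap1 motif, on both strands within 500 bases upstream of the start codon. It was present at 22 of the 56 genes (39.3%), at 32 of 82 large subunit genes (39.0%) and at 359 of 5986 genes in all (6.00%). The windows below are from RefSeq R64 and written 5′ to 3′ on the gene's strand, with the motif in capitals. They belong to members of the pairs that changed most.
RPS9A: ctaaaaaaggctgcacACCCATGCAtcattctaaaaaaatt
RPS16A: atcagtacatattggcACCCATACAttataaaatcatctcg
RPS16B: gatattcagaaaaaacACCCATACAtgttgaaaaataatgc
RPS23B: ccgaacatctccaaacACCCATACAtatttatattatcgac
The windows are chrXVI:404692-404732 (+), chrXIII:551605-551645 (+), chrIV:308127-308167 (-) and chrXVI:794641-794681 (+), in that order. The motif letters shown are the same in RPS16A and RPS16B, and the bases around them differ. RPS16A and RPS16B each hold another copy of the motif on the other strand further upstream. No match to these letters was found in the window of RPS9B or RPS23A.

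The 30 libraries held 3838508 to 6912702 sense counts (median 4731420). Of the read pairs, 35.5% to 58.2% aligned at several positions and were not counted, and 23.0% to 40.8% were counted on genes. The label check for MED16, listed as SIN4, held: its level in CPM (counts scaled to library size, here by trimmed means) was 185, 209 and 213 in WT and 3.71, 2.67 and 2.26 in med16Δ (log2 fold change -6.07, edgeR quasi-likelihood test, adjusted p = 1.65e-14). RNA does not report on protein degradation, so the degron strains have no such check here. All 56 genes passed the filter on low counts, in a table of 5710 genes tested for the first set and 5803 for the other. The study calls the replicates biological, but the labels do not say whether they came from separate cultures, and p-values measure the spread between these libraries.

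The 56 genes took 1.68% to 2.92% of all sense counts, against 2.50% to 4.29% for the 82 large subunit genes. In WT their share was 2.03%, 2.00% and 2.08%, and in med16Δ it was 1.93%, 2.30% and 2.34%. In Med16-AID it was 2.20%, 2.13% and 1.87% with DMSO and 1.72%, 1.91% and 1.68% with 3-IAA. The 3-IAA minus DMSO difference of the Med16-AID means was -0.297 percentage points (2.07% ± 0.17 against 1.77% ± 0.13, SD, n = 3), and DMSO replicate 3 lay below 3-IAA replicate 2.

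In Med15-AID the share was 2.92%, 2.66% and 2.68% with DMSO and 2.68%, 2.49% and 2.76% with 3-IAA. In Med15/16-AID it was 2.6%, 2.64% and 2.36% with DMSO and 2.63%, 2.41% and 2.61% with 3-IAA. In Mot1/Med16-AID it was 2.23%, 2.53% and 2.15% with DMSO and 2.28%, 2.11% and 2.15% with 3-IAA. The groups overlapped in all 5 comparisons, and only the Med16-AID difference was larger than the pooled SD of its groups (0.152 percentage points). A share moves with the most abundant RNAs of a library, and the fits below scale each library by trimmed means of M values (TMM) over S. cerevisiae genes. The study spiked in S. pombe cells, whose counts were not used here, so each change is relative to other S. cerevisiae genes and no absolute shift is given.

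**Figure D1:**
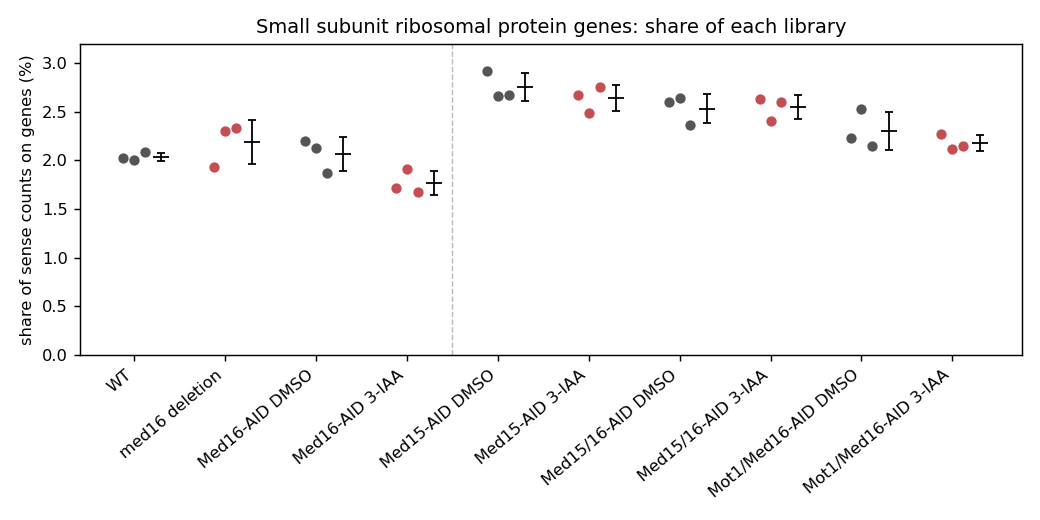
Share of all sense counts taken by the 56 small subunit ribosomal protein genes (%, vertical axis) in each of the 30 libraries by group, with the mean and SD of each group (n = 3); the dashed line parts the 2 sets of libraries. The groups overlap within every comparison, and the lowest values, 1.68% and 1.72%, belong to Med16-AID with 3-IAA.

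The genes were not produced evenly. Per kilobase of coding exon, WT levels ran from 335 to 2111 CPM per kb (median 818), a 6.30-fold range. RPS31 (YLR167W), made as a fusion of ubiquitin with a ribosomal protein, stood highest at 2111 ± 23 CPM per kb (SD, n = 3). It was followed by RPS2 (YGL123W), a protein of the mRNA entry side, at 1615 ± 81, and RPS12 (YOR369C), a protein of the beak of the subunit, at 1559 ± 121. RPS2 and RPS12 did not differ beyond their spread.

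The lowest was RPS14B (YJL191W), the minor copy of a platform protein, at 335 ± 10 CPM per kb. In yeast its pre-mRNA is known to be bound by Rps14 itself. RPS25B was next at 393 ± 12 and RPS6B at 406 ± 23, and these did not differ beyond their spread. RPS6B is among the genes whose counts rest on part of their sequence (22.9% of 38-base windows unique). The other 50 genes fell between them.

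**Figure D2:**
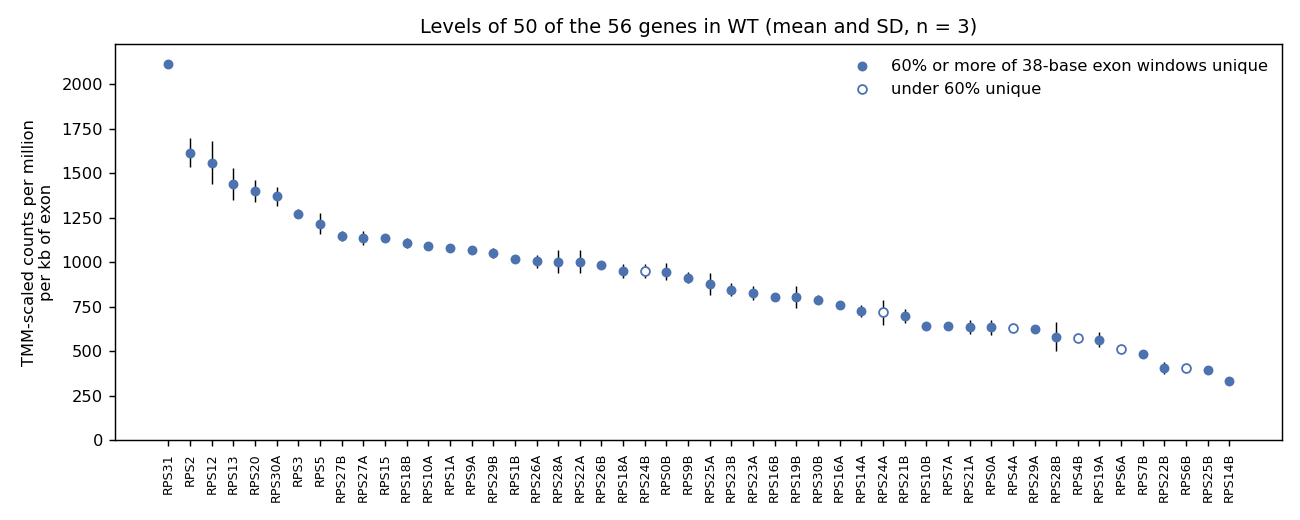
Level of 50 of the 56 genes in WT (TMM-scaled CPM per kb of coding exon, vertical axis; mean and SD, n = 3), ordered from high to low; open points are genes with under 60% of 38-base windows unique. RPS31 stands alone at 2111 and the levels then decline to RPS14B at 335.

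Lasting loss of Med16 left no gene of the family past the test. With edgeR, 0 of the 56 passed an adjusted p of 0.05 in med16Δ against WT (3 at an unadjusted p under 0.05, and 1 with DESeq2), where 9.53% of all genes tested were called lower and 7.97% higher. Their median log2 fold change was -0.09 (range -0.28 to 0.09) against 0.01 over all genes, and it turned to 0.09 when libraries were scaled to their totals, which moved the median of all genes by 0.18. That scaling also turned the split of all calls from 455 higher and 544 lower to 1676 and 342.

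RPS9A (YPL081W), which encodes a protein near the mRNA entry channel that bears on decoding, had the lowest value. Its level was 623, 637 and 643 CPM in WT and 441, 563 and 569 CPM in med16Δ (log2 fold change -0.28 ± 0.09 SE, edgeR adjusted p = 0.0502). All med16Δ libraries lay below all WT libraries, with replicate 1 farthest. RPS16B, whose protein reaches the P site with its tail, had a log2 fold change of -0.23 and RPS14B one of -0.21, neither called. RPS12 at 0.08 and RPS13 at 0.06 were among the highest.

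The med16Δ libraries did not move together. For each library the median over the 56 genes was taken of the log2 level minus the mean over the set, less the same median over all genes. This library level was 0.13, 0.17 and 0.21 in WT and -0.08, 0.15 and 0.15 in med16Δ. Without med16Δ replicate 1 the median relative to all genes was -0.03, against -0.11 with it, and without med16Δ replicate 3, 1 gene was called.

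Acute depletion of Med16 lowered 32 of the 56 genes relative to other genes and raised none. The median log2 fold change was -0.34 (range -0.59 to -0.02) against 0.01 for all genes, so every one of the 56 had a negative value. Over all genes 6.99% were called lower and 4.08% higher. The called genes included RPS28B, RPS31, RPS6A, RPS2, RPS13, RPS9A and RPS9B, and 21 of them hold an intron while 11 do not. Of the paired genes 29 of 48 were called and of the unpaired genes 3 of 8.

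RPS28B (YLR264W), whose mRNA is known in yeast to be kept in check by its own protein through Edc3, changed most. It stood at 107, 103 and 83.3 CPM with DMSO and at 72.5, 61.9 and 60.2 CPM with 3-IAA (log2 fold change -0.59 ± 0.12 SE, edgeR adjusted p = 0.00515). The groups did not overlap. RPS28A gave 259, 230 and 214 CPM with DMSO and 186, 248 and 184 CPM with 3-IAA. Those groups overlapped through 3-IAA replicate 2.

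RPS31 stood at 980.4, 974 and 803 CPM with DMSO and 625, 713 and 602 CPM with 3-IAA (-0.51 ± 0.11 SE, edgeR adjusted p = 0.00533). RPS6A (YPL090C), a copy of the gene for the phosphoprotein S6, stood at 396, 381 and 293 CPM against 238, 296 and 242 CPM (-0.46 ± 0.12 SE, adjusted p = 0.0231), and here DMSO replicate 3 lay just below 3-IAA replicate 2. The DMSO replicate 3 and the 3-IAA replicate 2 were the libraries nearest to the other group in general. At the other end, RPS14A gave 272, 259 and 209 CPM with DMSO and 256, 260.2 and 215 CPM with 3-IAA (log2 fold change -0.02), followed by RPS15, a protein of the head of the subunit, at -0.11 and RPS14B at -0.15. None of these passed the test.

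The library level was 0.17, 0.12 and -0.14 with DMSO and -0.33, -0.17 and -0.40 with 3-IAA, separate but by a narrow gap. The count of 32 fell to 5 without 3-IAA replicate 1, to 6 without 3-IAA replicate 3, to 6 without DMSO replicate 2 and to 17 without DMSO replicate 1. Scaling to library totals gave 10 called genes with a median of -0.22, moved the median of all genes by 0.11 and turned the split of all calls from 233 higher and 399 lower to 830 and 192.

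The difference between acute and lasting loss was tested as an interaction. With edgeR 0 of the 56 genes passed, where 2.78% of all genes were called lower and 3.89% higher. At an unadjusted p under 0.05 there were 17, and after adjustment with DESeq2 there were 3. Without med16Δ replicate 1 edgeR called 11 genes, without Med16-AID DMSO replicate 3 it called 7, and without 3-IAA replicate 2 it called 1. The median of the differences was -0.25.

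Acute depletion of Med15 also lowered 32 of the 56 genes and raised none. The median log2 fold change was -0.24 (range -0.39 to -0.15) against 0.01 for all genes, of which 9.68% were called lower and 4.00% higher. All 56 values were negative. Of the 32 genes, 21 hold an intron and 11 do not. With Med16-AID depletion 22 of the 32 were shared, which is 68.8% of either list, where 32 of 56 is 57.1% of the family. They included RPS28B, RPS31, RPS2, RPS13, RPS16A and RPS16B.

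RPS28B again had the lowest value, at 160, 147 and 157 CPM with DMSO and 121, 100.1 and 132 CPM with 3-IAA (log2 fold change -0.39 ± 0.09 SE, edgeR adjusted p = 0.00479). The groups were apart. RPS3 (YNL178W), whose protein lines the mRNA entry channel, stood at 1099, 1053 and 976 CPM against 825, 759.9 and 898 CPM (-0.33 ± 0.09 SE, adjusted p = 0.0159). RPS31 stood at 1181, 1070 and 1054 CPM against 891, 819 and 943 CPM (-0.32 ± 0.08 SE, adjusted p = 0.00932). In both genes all DMSO libraries lay above all 3-IAA libraries.

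Among the smallest values were those of RPS19B (-0.15) and RPS19A (-0.15), both copies of the gene for a protein of the head of the subunit, and neither was called. The library level was 0.30, 0.16 and 0.17 with DMSO and -0.02, -0.13 and 0.04 with 3-IAA, and the groups did not overlap.

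The count of 32 fell to 4 without DMSO replicate 1, to 3 without 3-IAA replicate 2 and to 15 without 3-IAA replicate 1. Scaling to library totals left 0 called, with a median of -0.06, moved the median of all genes by 0.18 and turned the split of all calls from 232 higher and 562 lower to 2897 and 336.

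When Med15 and Med16 were depleted together, 5 of the 56 genes (8.93%) fell and none rose. Over all genes 8.05% were called lower and 4.00% higher, so the share called lower was close to that of all genes. The genes called included RPS9A, RPS14B, RPS16B and RPS22B, and each of the 5 holds an intron, as do 36 of the 56 genes. Of the 5, 4 were also lower after Med15 depletion alone, RPS9A being the exception. The median log2 fold change was -0.15 (range -0.31 to 0.02) against 0.01 for all genes, and it became 0.01 under scaling to library totals.

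RPS14B stood at 179, 182 and 162 CPM with DMSO and 143, 132 and 144 CPM with 3-IAA (log2 fold change -0.31 ± 0.07 SE, edgeR adjusted p = 0.00126). RPS9A stood at 808, 833 and 748 CPM against 681, 686 and 675 CPM (-0.23 ± 0.06 SE, adjusted p = 0.0160). In both, the groups did not overlap. RPS4A had a log2 fold change of -0.23 but did not pass (edgeR adjusted p = 0.0809), and its counts rest on part of its sequence (43.3% of 38-base windows unique). RPS28A (0.02), RPS6B (-0.05) and RPS15 (-0.07) had the highest values.

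The library level was 0.09, 0.14 and -0.05 with DMSO and -0.03, -0.18 and -0.05 with 3-IAA, so the groups overlapped. The count of 5 became 15 without DMSO replicate 3, 11 without 3-IAA replicate 1, 2 without 3-IAA replicate 2 or 3 and 1 without DMSO replicate 1 or 2. Scaling to library totals gave 1, moved the median of all genes by 0.15 and turned the split of all calls from 232 higher and 467 lower to 2111 and 345.

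Set against Med15 depletion alone in an interaction test, 0 genes differed with edgeR (0 at an unadjusted p under 0.05, and 0 with DESeq2), where 0.138% of all genes were called lower and 0.258% higher. The median of the differences was 0.11, positive for 51 of the 56 genes. The lower count after joint depletion is therefore not shown to be a different response.

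Depletion of Mot1 with Med16 lowered some of these genes and left others near 0. The test called 24 of the 56 genes lower and none higher, in a comparison where 23.1% of all genes were called lower and 21.7% higher. The median log2 fold change was -0.16 against -0.01 for all genes, but the range was the widest of the 5 comparisons, from -0.68 to 0.10, with 7 positive values. All genes were also most spread here, with a middle 50% from -0.20 to 0.20, and that of the 56 genes was narrower, from -0.27 to -0.04. RPS9A, RPS23A and RPS28B changed most, while RPS12, RPS14B and RPS26B had values above 0.

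RPS9A stood at 649, 742 and 627 CPM with DMSO and 439, 401 and 415 CPM with 3-IAA (log2 fold change -0.68 ± 0.06 SE, edgeR adjusted p = 1.00e-08). RPS23A (YGR118W), which encodes a protein of the decoding centre, stood at 376, 458 and 378 CPM against 286, 263 and 298 CPM (-0.52 ± 0.07 SE, adjusted p = 4.69e-06). RPS28B stood at 109, 123 and 92.0 CPM against 82.0, 81.1 and 70.7 CPM (-0.46 ± 0.10 SE, adjusted p = 0.000963). None of the 3 genes had overlapping groups.

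RPS14B had the highest log2 fold change, 0.10, with 152, 159 and 145 CPM against 167, 161 and 159.6 CPM. Its groups were apart by less than 1 CPM and it did not pass the test (adjusted p = 0.250). RPS12 (0.09) and RPS26B (0.05), which sits at the mRNA exit, did not pass either. RPS12 gave 725, 871 and 673 CPM with DMSO and 866, 801 and 754 CPM with 3-IAA, and the groups overlapped.

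The library level was -0.06, 0.13 and -0.10 with DMSO and -0.09, -0.25 and -0.17 with 3-IAA, overlapping by 1 library. Without DMSO replicate 2 the count was 12 and the median relative to all genes was -0.06, against 24 and -0.14 with it. Scaling to library totals gave 17 called genes and a median of -0.09 and turned the split of all calls from 1259 higher and 1340 lower to 1667 and 946.

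**Figure D3:**
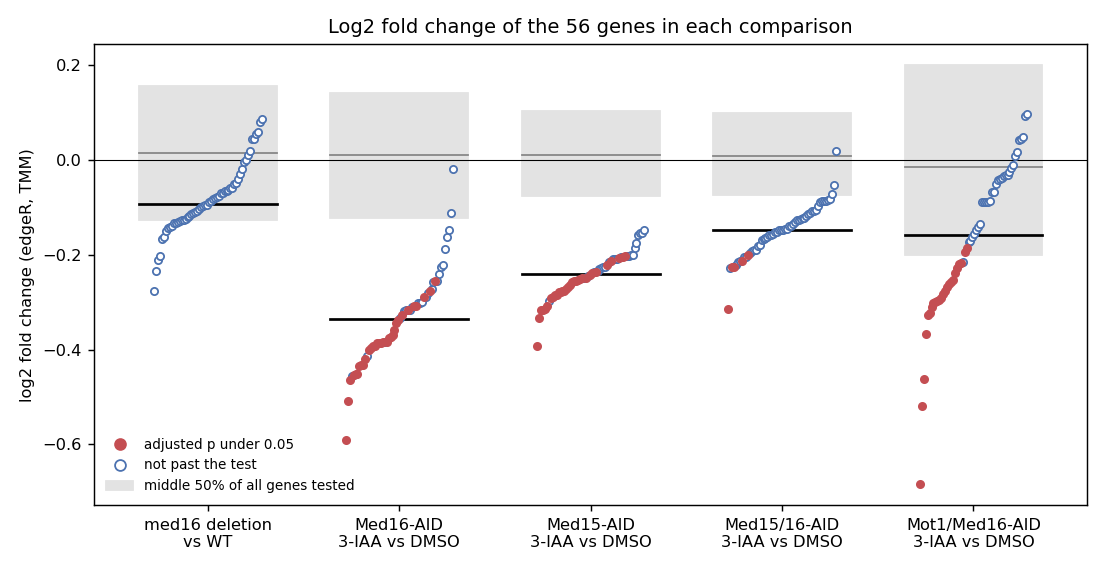
Log2 fold change (edgeR, TMM scaling, vertical axis) of each of the 56 genes in the 5 comparisons, ordered within each; filled points have an adjusted p under 0.05, the black line is the median of the 56, and the grey box and line are the middle 50% and median of all genes tested. Medians are -0.09, -0.34, -0.24, -0.15 and -0.16 from left to right, and those of the med16 deletion and Med15/16-AID become 0.09 and 0.01 under scaling to library totals.

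Both Mot1/Med16-AID and Med15/16-AID lose Med16, so their effects were compared directly. In this interaction 3 of the 56 genes passed, against 12.5% of all genes lower and 14.6% higher. RPS9A (-0.46, edgeR adjusted p = 0.000472) and RPS23A (-0.36, adjusted p = 0.0103) changed more downward with Mot1 in the pair of targets. RPS14B differed the other way (0.41, adjusted p = 0.00204). The count became 6 without Med15/16-AID 3-IAA replicate 1 and 5 without Mot1/Med16-AID DMSO replicate 3.

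RPS9A lies at chrXVI:404950-406044 (+) and is the divergent neighbour of MOT1 at chrXVI:398480-404083 (-), 866 bases away. MOT1 carries the degron tag in Mot1/Med16-AID. Its level there was 819, 726 and 815 CPM with DMSO and 1091, 1395 and 1213 CPM with 3-IAA (log2 fold change 0.65, edgeR adjusted p = 1.24e-07). With DMSO it was 172, 186 and 188 CPM in Med15/16-AID and 313 to 337 CPM (mean 321) in Med15-AID, so strains without the tag on Mot1 also differed. Where it was not tagged MOT1 was called lower after 3-IAA, with a log2 fold change of -0.55 in Med16-AID, -0.38 in Med15-AID and -0.33 in Med15/16-AID. RPS9A was called lower in Med16-AID (-0.45) and Med15/16-AID (-0.23) as well. The part of the neighbouring, tagged gene in the RPS9A result was not tested.

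Paralog ratios compare A and B within a library and need no scaling. The log2 ratio was tested with limma over 61 pairs of genes whose symbols differ in a last A or B, of which 24 are small subunit pairs. In Mot1/Med16-AID 10 of the 24 changed after 3-IAA, against 26 of the 61 pairs (42.6%). The 61 pairs hold these 24 and also pairs of large subunit genes, so they are not a background of genes at large. Among them, changed ratios were about as frequent as in this family. In each of the other 4 comparisons 0 of the 24 passed with limma, against 1.64% of the 61 pairs in med16Δ, 3.28% in Med16-AID, 3.28% in Med15-AID and 3.28% in Med15/16-AID. At an unadjusted p under 0.05, which was not counted for the other pairs, there were 3 in med16Δ, 5 in Med16-AID, 2 in Med15-AID and 2 in Med15/16-AID.

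In Mot1/Med16-AID copy A moved below copy B in 6 pairs, among them RPS9, RPS23, RPS16, RPS26 and RPS14, and above it in 4, among them RPS4, RPS7 and RPS22. The largest was RPS9. Its log2 ratio of A to B was 0.02, 0.05 and 0.06 with DMSO and -0.60, -0.52 and -0.53 with 3-IAA (change -0.60 ± 0.04 SE, limma adjusted p = 8.67e-15). The groups were far apart, and the change was in RPS9A, since RPS9B gave 641, 714 and 601 CPM with DMSO and 667, 576 and 600 CPM with 3-IAA. The strains also differed before 3-IAA. With DMSO the mean RPS9 ratio was 0.04 in this strain, against 0.35 in both Med15-AID and Med15/16-AID. In the same order it was 0.03 against 0.17 and 0.12 for RPS23, and -0.26 against -0.01 and -0.15 for RPS16. RPS14 differed the other way, at 1.52 against 1.04 and 1.31.

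The RPS23 ratio was 0.02, 0.07 and 0.00 with DMSO and -0.43, -0.38 and -0.19 with 3-IAA (change -0.37 ± 0.05 SE, limma adjusted p = 7.28e-07). Replicate 3 lay nearest to the controls, without overlap. The RPS16 ratio was -0.27, -0.21 and -0.31 with DMSO and -0.56, -0.54 and -0.54 with 3-IAA (change -0.28 ± 0.06 SE, adjusted p = 7.36e-05). RPS16A gave 338, 382 and 320 CPM against 295, 286 and 282 CPM, while RPS16B gave 409, 442 and 395 CPM against 436, 415 and 410 CPM.

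The RPS23 and RPS16 copies encode the same proteins, so the shift in these pairs was between genes and not between protein sequences. The same holds for RPS4, whose ratio changed by 0.22 (limma adjusted p = 0.000188). The RPS26 ratio changed by -0.20 and the RPS14 ratio by -0.18. The ratios of RPS7 (0.22) and RPS22 (0.21) moved toward A. Rps7 is the most diverged of the called pairs, with 23 of 190 residues different between its copies.

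**Figure D4:**
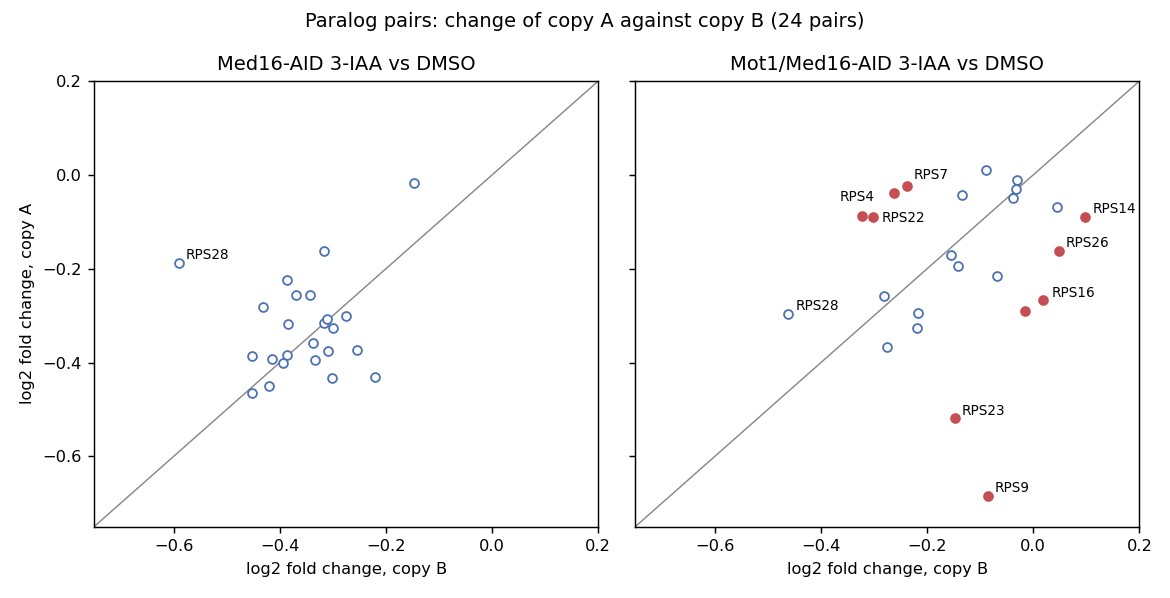
Log2 fold change of copy A (vertical axis) against copy B (horizontal axis) for the 24 paralog pairs after Med16-AID and Mot1/Med16-AID depletion (edgeR); filled points are pairs whose A to B ratio passed the limma test, and the line marks equal change. No pair passed on the left and 10 passed on the right, with RPS9 farthest from the line.

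The pairs with the largest changes elsewhere did not pass. The RPS28 ratio changed toward A by 0.39 ± 0.14 SE in Med16-AID, 0.20 ± 0.09 in Med15-AID and 0.24 ± 0.09 in Med15/16-AID, and in none did it pass (limma adjusted p = 0.165, 0.244 and 0.132). In Med16-AID its libraries gave 1.27, 1.16 and 1.36 with DMSO and 1.36, 2.00 and 1.61 with 3-IAA. In med16Δ the RPS9 ratio was 0.06, -0.06 and 0.09 against 0.24, 0.28 and 0.21 in WT (change -0.21 ± 0.06 SE, adjusted p = 0.0656), without overlap but not called.

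Other pairs had like values there, with changes of 0.20 for RPS14 in med16Δ, -0.20 for RPS7 and 0.16 for RPS23 in Med16-AID, and 0.18 for RPS14 and 0.11 for RPS22 in Med15/16-AID. In Med15-AID the RPS9 ratio changed by 0.11 and the RPS7 ratio by -0.09. None passed the limma test. The count of called pairs rose from 0 to 3 in Med15/16-AID without 3-IAA replicate 1, to 1 in Med16-AID without 3-IAA replicate 1, and to 1 in Med15-AID without DMSO replicate 2 or 3-IAA replicate 3.

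**Figure D5:**
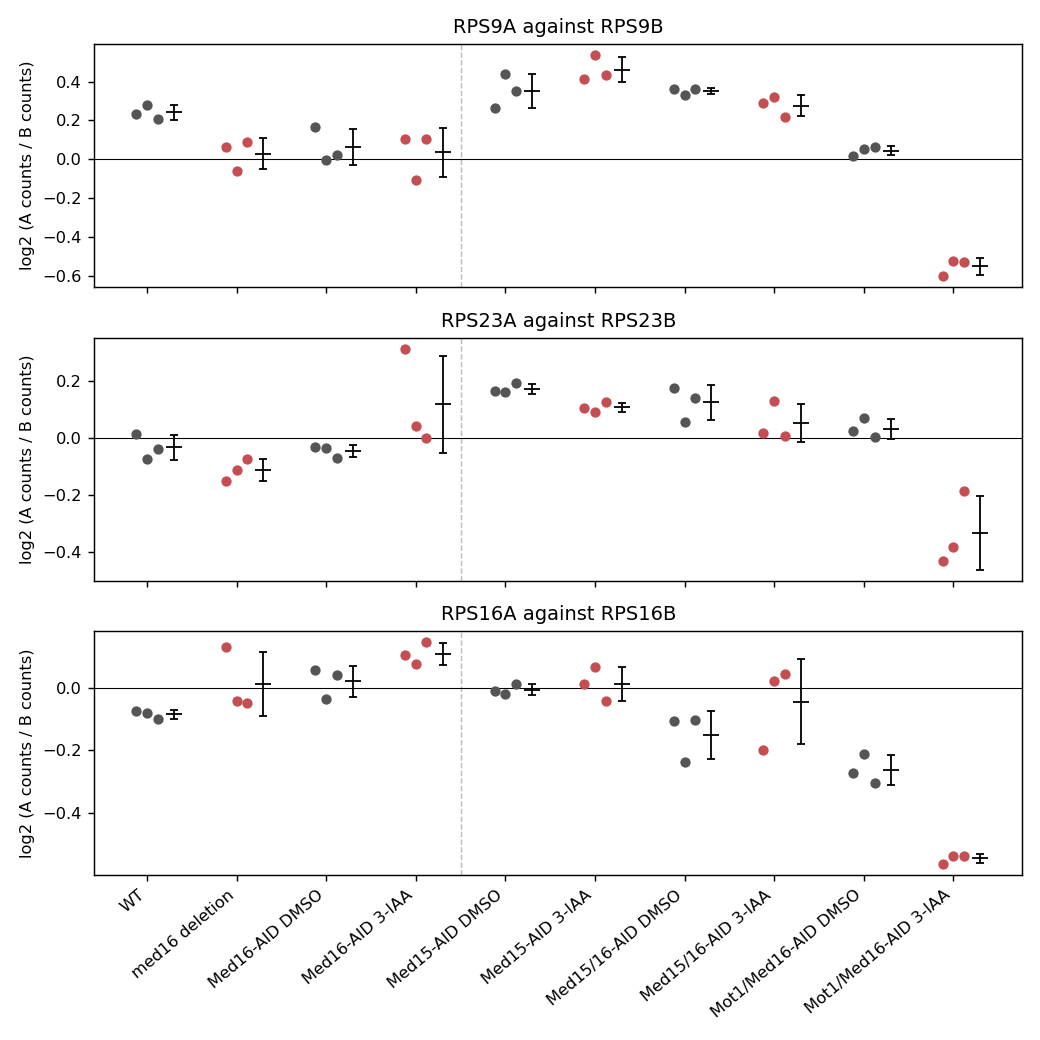
Log2 ratio of A to B counts (vertical axes) in each library by group for RPS9, RPS23 and RPS16, with the mean and SD of each group (n = 3); the dashed line parts the 2 sets of libraries. Only the Mot1/Med16-AID 3-IAA libraries lie at -0.19 or lower for RPS9 and RPS23, and for RPS16 they lie at -0.56 to -0.54.

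Across the 5 comparisons no gene was called in more than 3, and none was higher at an unadjusted p under 0.05 with edgeR or after adjustment with DESeq2. There were 13 genes called in 3, 20 in 2, 14 in 1 and 9 in none, among them RPS0A, RPS4A, RPS12, RPS19A, RPS21A, RPS26A, RPS27B and RPS30A. Mot1/Med16-AID shared 13 called genes with Med16-AID (54.2% of its 24 and 40.6% of the 32) and 15 with Med15-AID (62.5% and 46.9%), where the called genes are 57.1% of the family in either single depletion and 42.9% in Mot1/Med16-AID. The overlaps were not tested. Relative to all genes, the median change was -0.11 in med16Δ, -0.35 in Med16-AID, -0.25 in Med15-AID, -0.16 in Med15/16-AID and -0.14 in Mot1/Med16-AID. It was below 0 in all 65 alternative fits (-0.44 to -0.03). Those that changed only the scaling could not test its sign, since scaling shifts the family and all genes alike. Those that left out 1 library shared most libraries with the main fit and with each other. The plain median of the family in med16Δ, not taken relative to all genes, turned from -0.09 to 0.09 under library totals.

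Genes with and without a match to the Rap1 motif as searched are given side by side, with no test. A gene without a match may still hold a Rap1 site, since only these letters were searched and binding was not measured. In Mot1/Med16-AID 10 of 22 genes with the motif and 14 of 34 without it were called, with a median of -0.16 in both. In Med16-AID the counts were 14 of 22 and 18 of 34, with medians of -0.33 and -0.35. A search for TATAAA within 250 bases upstream of the start codon, added after the values were seen, found it at 10 of the 56 genes (17.9%) against 28.4% of all genes. In Mot1/Med16-AID 2 of 10 genes with it and 22 of 46 without it were called, with medians of -0.03 and -0.18. The 10 genes ranged there from -0.68 to 0.10, the full range of the family. In Med16-AID 5 of 10 and 27 of 46 were called, with medians of -0.38 and -0.33. This split was not tested.

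The large subunit genes gave similar counts and medians. Of 82 genes, 3 were called lower in med16Δ, 42 in Med16-AID, 47 in Med15-AID, 10 in Med15/16-AID and 38 in Mot1/Med16-AID, and none was called higher. Their medians were -0.08, -0.32, -0.25, -0.16 and -0.18, beside -0.09, -0.34, -0.24, -0.15 and -0.16 for the small subunit genes. The medians of both families in med16Δ are those under TMM scaling, and that of the 56 genes turns to 0.09 with library totals, as that in Med15/16-AID turns to 0.01.

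The mitochondrial small subunit genes, which share a function but not a compartment, gave 9 lower and 1 higher of 31 in Mot1/Med16-AID. In the other 4 comparisons edgeR called 0 of them (1 in med16Δ, 2 in Med16-AID, 1 in Med15-AID and 2 in Med15/16-AID at an unadjusted p under 0.05). Of 13 genes for assembly factors of the 40S subunit, YAR1 was lower in med16Δ (log2 fold change -0.35), LTV1, PNO1 and YAR1 were lower in Med16-AID, and in Mot1/Med16-AID TSR1, RIO2 and YAR1 were higher and HRR25 lower, beside the shares of all genes called that are given above. ASC1, which encodes the scaffold protein bound to the 40S head, was lower in Med15-AID (log2 fold change -0.29) and Mot1/Med16-AID (-0.37).

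Among 12 genes for regulators of ribosomal protein and ribosome assembly genes, those for the repressors Dot6 and Tod6 and for Rap1, Hmo1 and a corepressor were called. DOT6 rose in Med16-AID (0.42) and Med15-AID (0.30) and fell in Mot1/Med16-AID (-0.71). TOD6 rose in med16Δ (0.50) and Mot1/Med16-AID (0.45). RAP1 rose in med16Δ (0.29) and fell in Med15-AID (-0.18) and Mot1/Med16-AID (-0.25). HMO1 fell in Med15/16-AID (-0.26) and Mot1/Med16-AID (-0.20), and CRF1, for the corepressor, rose in Med15/16-AID (0.65). CRF1 stood low, at mean levels of 8.92 CPM with DMSO and 13.8 CPM with 3-IAA in that strain. In Med15-AID its means were 4.21 and 6.64 CPM, also higher with 3-IAA but not called. These are RNA levels, and their part in the results above was not tested.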

How the data were processed

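Newly synthesized RNA was isolated after 4tU labelling, depleted of rRNA with an exonuclease and made into stranded libraries. The authors aligned read pairs with STAR 2.6.1a to sacCer3 with the S. pombe genome and deposited raw read counts per gene (unstranded, sense and antisense columns). Only uniquely placed reads were counted. The sense counts were used as deposited, and the first 4 rows, which name no gene, were left out. Reads were of 38 or 75 cycles per the study's methods, and which libraries had which length is not given in the sources used here. The study used DESeq2 with size factors from an S. pombe spike-in. Those counts were not used, so scaling was by TMM.

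Genes were filtered with filterByExpr and tested with the quasi-likelihood test of edgeR 4.0.16 in R 4.3.3, with Benjamini-Hochberg adjustment over all genes and a threshold of 0.05. The fold changes use a prior count of 0.125. CPM are TMM-scaled. Libraries of WT, med16Δ and Med16-AID (12) and of the other strains (18) were fitted apart. Pair ratios, log2 of (A + 0.5)/(B + 0.5), were tested with limma 3.58.1 over pairs with mean counts of at least 10. DESeq2 1.42.0, other scalings, filters, strand columns and left-out libraries were alternatives. On simulated data, edgeR found 99% of 200 genes changed by 1 on the log2 scale, among 5689 genes in a run for Med16-AID and 5762 in a run for Med15/16-AID, with 16 and 13 false calls. Recovery of smaller changes, such as those of the genes described here, was not simulated.

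The 56 genes and the lists used for context were chosen with earlier results of these data known. In each comparison the 3 genes of highest and lowest log2 fold change, in WT those of highest and lowest level, and the 3 pairs of largest change were named. Others were named after their values were seen. Some genes and pairs that this rule picks are not reported here by name, and stay in the counts and medians. Sequences and positions came from RefSeq R64, to which 6008 genes matched, with Biopython 1.88. Counting intervals were not given, since replicate spread was used as the error.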

Additional observations from a re-analysis of the deposited data

Results flagged for a closer look

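The Mot1/Med16-AID and Med15/16-AID effects differed for 3 of the 56 genes (5.36%) by an interaction test with edgeR. Over all genes 12.5% were called lower and 14.6% higher in this test, so such calls were less frequent in the family. RPS9A differed by -0.46 on the log2 scale and RPS23A by -0.36, and RPS14B differed by 0.41 in the other direction. For RPS14B, 3-IAA lowered the level in all 3 Med15/16-AID libraries, and in Mot1/Med16-AID the 3-IAA libraries lay above the DMSO libraries without passing the test.

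Antisense counts over the 56 genes, which no comparison above uses, were higher with 3-IAA than with DMSO in the strains that lose Med16 alone or with Mot1. As a percent of the sense counts of these genes they were 0.130, 0.1247 and 0.106 in Med16-AID with DMSO and 0.174, 0.191 and 0.191 with 3-IAA (means 0.120% and 0.1855%). In Mot1/Med16-AID they were 0.109, 0.124 and 0.138 with DMSO and 0.232, 0.197 and 0.180 with 3-IAA (means 0.124% and 0.203%). The groups did not overlap in either strain, and no test was run.

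In Med15-AID the means were 0.0946% and 0.0950%, and in Med15/16-AID they were 0.111% and 0.134%, with overlapping libraries. In WT and med16Δ they were 0.166% and 0.137%, also overlapping. These are few counts, 342 and 531 over the Med16-AID groups and 413 and 606 over the Mot1/Med16-AID groups. RPS29A had 24 antisense counts with DMSO and 60 with 3-IAA in the former and 26 and 52 in the latter. These sums are not scaled for depth. Mean sense counts per library were 4.53e+06 with DMSO and 5.41e+06 with 3-IAA in Med16-AID, and 4.84e+06 and 4.53e+06 in Mot1/Med16-AID. Over all genes antisense counts ranged from 5.55% to 6.62% of sense counts, and in Mot1/Med16-AID they were also higher without overlap, at 5.93%, 6.17% and 6.06% with DMSO and 6.47%, 6.25% and 6.51% with 3-IAA. Part of the ratio moves with the sense counts of the same genes, whose part in the result was not tested.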

How the results depend on the processing

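Of 298 values under an alternative, 254 stayed the same by the limits used (within 1.5 times for a count, within the replicate SD for a median or share) and 0 were counted as reversed, though the plain medians of the 56 genes in med16Δ and Med15/16-AID changed sign under library totals. In the counts of called genes, library totals gave 10 in Med16-AID, 0 in Med15-AID, 1 in Med15/16-AID, 4 in the Med16-AID against med16Δ interaction and 7 in the Mot1/Med16-AID against Med15/16-AID interaction. Fitting only the groups compared gave 19 in Med16-AID and 54 in Med15-AID, and 1 called pair each in Med16-AID and med16Δ. DESeq2 size factors and the DESeq2 test each gave 1 in med16Δ, the DESeq2 test gave 3 in the acute against lasting interaction, and unstranded counts gave 1 pair in med16Δ. The cause was not tested beyond what the changed step implies.

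Leaving out 1 library at a time gave 0 to 1 called genes in med16Δ, 5 to 46 in Med16-AID, 3 to 35 in Med15-AID, 1 to 15 in Med15/16-AID, 12 to 28 in Mot1/Med16-AID, 0 to 11 in the acute against lasting interaction and 3 to 6 in the interaction with Mot1. The called pairs ranged from 0 to 1 in Med16-AID, 0 to 1 in Med15-AID, 0 to 3 in Med15/16-AID and 9 to 11 in Mot1/Med16-AID. The median relative to all genes ranged from -0.204 to -0.062 in Mot1/Med16-AID.

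The replicate numbers were not used to pair the libraries. In no comparison did every same-numbered pair correlate above 0.1 in deviations from the group means. In Med15-AID the correlations were 0.06, 0.11 and 0.09. With 3 libraries per group this check cannot exclude pairing. With the replicate number as a block, 1 gene was called in med16Δ, 20 in Med15-AID, 3 in Med15/16-AID, 34 in Med16-AID and 22 in Mot1/Med16-AID, and 1 pair each in med16Δ and Med15-AID. Depth limits RPS28B and RPS29A most, which had the fewest counts, and multimapping reads limit the RPS6, RPS4 and RPS24 pairs.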
